A study of Homo sapiens with 15 samples.

Results

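The 10 enzymes of de novo purine synthesis were PPAT, GART, PFAS, PAICS, ADSL, ATIC, IMPDH1, IMPDH2, GMPS and ADSS, taken by gene symbol from the deposited tables, in which the enzyme now called ADSS2 carries its older symbol ADSS. They are 10 of the 16109 genes listed in any of the 3 tables, and all 10 were measured in every one of the 15 libraries. None was lost to the minimum level for listing, which asks that 2 or more of a table's 6 libraries exceed 1 CPM (a gene's reads per 1000000 reads counted). The series asks how gene expression responds to MYCi975, a small-molecule inhibitor of the transcription factor MYC, and to loss of MYC itself.

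PC3, a prostate cancer cell line, received 8 µM MYCi975 or, as its control, DMSO, the vehicle of MYCi975. P493-6, labelled as a Burkitt lymphoma line that overexpresses c-MYC, received 6 µM MYCi975, or 0.1 µg/ml tetracycline, which turns its MYC transgene off, or DMSO as the control of both. All cells were collected after 24 h and each of the 5 groups has 3 libraries. Tetracycline was dissolved in water while its controls received DMSO, so the effects of tetracycline and of this difference in vehicle cannot be told apart. Both lines grew in RPMI medium with 10% fetal bovine serum, and the libraries were made from 50 ng of total RNA with a strand-specific exon capture kit. Nothing in the labels ties libraries to separate cultures, and the p-values therefore speak only to the spread among these libraries, possibly a technical one.

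Libraries held 8162582 to 15926008 counted reads, the fewest in the tetracycline group (8162582 to 9895173). MYC, the gene that tetracycline is meant to silence, was at 4692, 4701 and 4791 CPM in P493-6 controls and at 152, 145 and 149.8 CPM with tetracycline, the largest fall of all 13703 genes tested there (log2 fold change -4.98, adjusted p = 2.76e-49). With MYCi975 the MYC transcript was not lower: it rose in PC3 from 304 ± 4.96 to 374 ± 13.6 CPM (log2 0.30, adjusted p = 3.99e-14) and in P493-6 from 4728 ± 54.8 to 5118 ± 29.4 CPM (log2 0.11, adjusted p = 0.00535; mean ± SD, n = 3 throughout). The tables have 1 entry for MYC, so transgene and endogenous transcripts were not separated. The 5 epithelial markers KRT8, KRT18, KRT19, EPCAM and KRT7 summed to 1468 to 1650 CPM per library in PC3, where 5 of the 6 B cell markers, PAX5 and MS4A1 among them, were not listed and the remaining one, CD74, reached at most 4.27 CPM. All 6 B cell markers were listed in P493-6, where their sum was 3736 to 3945 CPM in controls, 4224 to 4541 CPM with MYCi975 and 10739.6 to 11141 CPM with tetracycline. KRT8 and KRT18 were not listed in P493-6, and the 5 epithelial markers summed to at most 14.7 CPM there. Most of that sum was EPCAM, which hardly separated the lines. It was at 13.5 to 17.6 CPM in PC3 and at 10.7 to 14.3 CPM in P493-6 control and MYCi975 libraries. With tetracycline EPCAM went as low as 0.81 CPM. That the B cell markers moved with tetracycline was not tested for a part in the enzyme results.

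De novo synthesis builds the purine ring stepwise on phosphoribosyl pyrophosphate (PRPP), using glutamine, glycine, aspartate, carbon dioxide and formyl groups carried by folate, and ends in inosine monophosphate (IMP). PPAT commits PRPP to the route, GART catalyses several of the following reactions including a formyl transfer, PFAS adds nitrogen from glutamine, PAICS carboxylates the ring precursor and joins aspartate to it, ADSL removes fumarate, and ATIC makes the last formyl transfer and closes the ring to IMP. IMP then feeds a guanine branch, through the IMP dehydrogenases IMPDH1 and IMPDH2 and then GMPS, and an adenine branch, through ADSS and ADSL again. Growing cells depend on this route for nucleic acids, and several of its genes are textbook targets of MYC, which binds the E-box CACGTG with its partner MAX.

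The genes lie on 8 chromosomes, and coordinates here are those of the deposited tables (hg38). PPAT (chr4:56393362-56435615, minus strand) and PAICS (chr4:56435741-56461368, plus strand) stand head to head with 125 bases between them. PFAS lies at chr17:8247618-8270491 (plus), ATIC at chr2:215311817-215349773 (plus), ADSL at chr22:40346500-40369367 (plus) and GART at chr21:33503931-33543491 (minus). In the guanine branch, IMPDH1 lies at chr7:128392277-128410252 (minus), IMPDH2 at chr3:49024325-49029408 (minus) and GMPS at chr3:155870536-155944026 (plus), and ADSS of the adenine branch at chr1:244408494-244452134 (minus). The span of GART overlaps SON by 874 bases and that of PFAS overlaps CTC1 by 427 bases, each on the opposite strand. Whether reads were counted by strand is not given in the sources used here, so reads from these overlaps could belong to either gene.

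Promoter sequences are shown for the enzymes that fell most with tetracycline and for ATIC, which holds the E-box more than once. Each window runs from 250 bases before a RefSeq start site to 50 bases after it (GRCh38.p14, the same assembly as hg38), 5′ to 3′ on the strand of the gene. Capitals mark the E-box CACGTG, which reads the same on both strands, or the related hexamer CACGCG, searched on both strands. PPAT and PAICS share most of theirs: their start sites (chr4:56435615 and chr4:56435752) are 137 bases apart and their windows overlap by 236 bases, so the PAICS window also shows the PPAT promoter on its other strand.
PAICS (chr4:56435502-56435801, plus strand): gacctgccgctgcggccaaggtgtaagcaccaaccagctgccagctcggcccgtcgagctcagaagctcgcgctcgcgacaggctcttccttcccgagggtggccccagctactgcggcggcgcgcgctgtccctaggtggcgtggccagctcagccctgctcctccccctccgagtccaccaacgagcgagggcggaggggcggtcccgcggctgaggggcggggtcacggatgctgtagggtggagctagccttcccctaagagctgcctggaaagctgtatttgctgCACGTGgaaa
ATIC (chr2:215311809-215312108, plus strand): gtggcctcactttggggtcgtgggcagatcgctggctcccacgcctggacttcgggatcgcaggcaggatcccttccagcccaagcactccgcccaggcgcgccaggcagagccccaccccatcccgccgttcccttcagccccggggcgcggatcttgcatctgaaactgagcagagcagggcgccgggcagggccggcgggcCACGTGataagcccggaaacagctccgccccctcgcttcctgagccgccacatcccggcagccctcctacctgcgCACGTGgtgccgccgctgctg
PFAS (chr17:8249039-8249338, plus strand): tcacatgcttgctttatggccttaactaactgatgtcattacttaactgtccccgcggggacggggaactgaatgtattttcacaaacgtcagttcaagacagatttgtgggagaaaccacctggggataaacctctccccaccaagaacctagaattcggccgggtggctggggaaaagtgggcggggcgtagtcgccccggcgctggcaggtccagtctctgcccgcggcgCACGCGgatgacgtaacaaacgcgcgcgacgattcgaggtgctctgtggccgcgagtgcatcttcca

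The single E-box in the overlap of the PPAT and PAICS windows lies at chr4:56435792-56435797, within PAICS. It starts 40 bases after the PAICS start site and, read from the other gene, 182 bases before the PPAT start site. In ATIC an E-box starts 46 bases before and another 29 bases after the start site. PFAS has no CACGTG in its window but a CACGCG 17 bases before its start site. Of the 8 enzymes with a RefSeq window (ADSL and IMPDH2 were not in the sequence table), 3 held CACGTG, counting the site shared by PPAT and PAICS for both, and 2 others, PFAS and ADSS, held CACGCG. In all RefSeq windows of the same length, 7.26% of 35116 held CACGTG and 11.4% held CACGCG. Some genes have several start sites (13 windows for these 8 enzymes), and per gene 8.77% of 27305 held CACGTG and 13.5% held CACGCG. GART, IMPDH1 and GMPS had neither hexamer in their windows. A hexamer in a window is a match of letters and not a measured binding site.

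With tetracycline in P493-6, all 10 enzymes fell, to between 12.3% and 35.0% of their control level. The largest falls were in PAICS, PPAT and PFAS, which dropped to 12.4%, 12.3% and 14.98% of control, and the smallest were in the guanine branch enzymes IMPDH2 and GMPS, which stayed at 35.0% and 34.4%. Their summed level went from 2616 ± 17.6 to 657 ± 16.2 CPM. Of all 13703 genes, 78.1% passed the test (limma on log2(CPM + 1), Benjamini-Hochberg adjusted p below 0.05, two-sided) 41.9% downward and 36.2% upward, so a call alone is common here. The size is less so, since 16.2% of all genes had a log2 fold change below -1 while all 10 enzymes were below -1.5. The median log2 fold change of the 10 was -1.79 against -0.05 over all genes, and all 10 lay among the lowest 10% of genes. CPM are shares of a library, so these falls are relative to the other genes counted. A change in cell number, or in RNA per cell shared by all genes, would not be seen in them. In such bulk RNA a fall in every cell and a larger fall in some cells cannot be told apart.

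PPAT, the committing enzyme, was at 131, 115 and 117 CPM in the 3 control libraries and at 16.0, 13.1 and 15.5 CPM with tetracycline. PAICS, its neighbour on chromosome 4, went from 468, 435 and 434 CPM to 52.1, 55.4 and 58.7 CPM. Both pairs of groups lay far apart, and the fitted log2 fold changes were -2.95 for PPAT (SE 0.077, adjusted p = 2.30e-30) and -2.99 for PAICS (SE 0.049, adjusted p = 4.20e-37), ranks 76 and 71 from the lowest of 13703 genes. The PPAT values with tetracycline rest on 107 to 153 reads per library. The ratio of PAICS to PPAT CPM, which is not corrected for gene length, was 3.69 ± 0.095 in controls and 3.76 ± 0.48 with tetracycline, a difference smaller than the spread. The ratio was lower with MYCi975, at 3.39 ± 0.0066 in P493-6. In PC3 it was 4.26 ± 0.084 in controls and 4.01 ± 0.15 with MYCi975. These differences of the ratio were not tested.

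PFAS, which adds nitrogen from glutamine, was at 294, 292 and 301 CPM in controls and at 42.1, 46.2 and 44.5 CPM with tetracycline. Its log2 fold change was -2.71 (SE 0.051, adjusted p = 3.54e-35), rank 115 from the lowest. The other enzymes of the route to IMP fell by less. GART went from 277 to 286 CPM in controls to 77.4 to 87.3 CPM (log2 -1.77, adjusted p = 1.05e-29). ADSL went from 358 to 377 CPM down to 103 to 109 CPM (log2 -1.78, adjusted p = 3.79e-31), and ATIC from 257 to 268 CPM down to 70.2 to 77.1 CPM (log2 -1.83, adjusted p = 3.61e-30). PPAT, PFAS and PAICS thus form the upper range of the falls, and their 95% intervals (upper ends -2.79, -2.61 and -2.89) do not meet that of any other enzyme, the lowest of which ends at -1.92 (ATIC).

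In the guanine branch, IMPDH1 went from 171 to 176 CPM in controls to 45.4 to 54.0 CPM with tetracycline (log2 -1.80, adjusted p = 2.59e-27). IMPDH2, the isoform usually linked to proliferation, went from 370.0, 367 and 367 CPM to 128, 133 and 126 CPM (log2 -1.51, SE 0.043, adjusted p = 3.19e-29). GMPS, which turns the product of the dehydrogenases into guanosine monophosphate, went from 227 to 233 CPM to 77.1 to 81.6 CPM (log2 -1.53, adjusted p = 9.67e-28). ADSS, the entry to the adenine branch, went from 72.0, 75.6 and 73.5 CPM to 23.4, 24.7 and 24.2 CPM (log2 -1.57, SE 0.071, adjusted p = 1.92e-22). For each of the 10 enzymes every tetracycline library lay below every control library, which held for 42.1% of all genes.

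**Figure D1:**
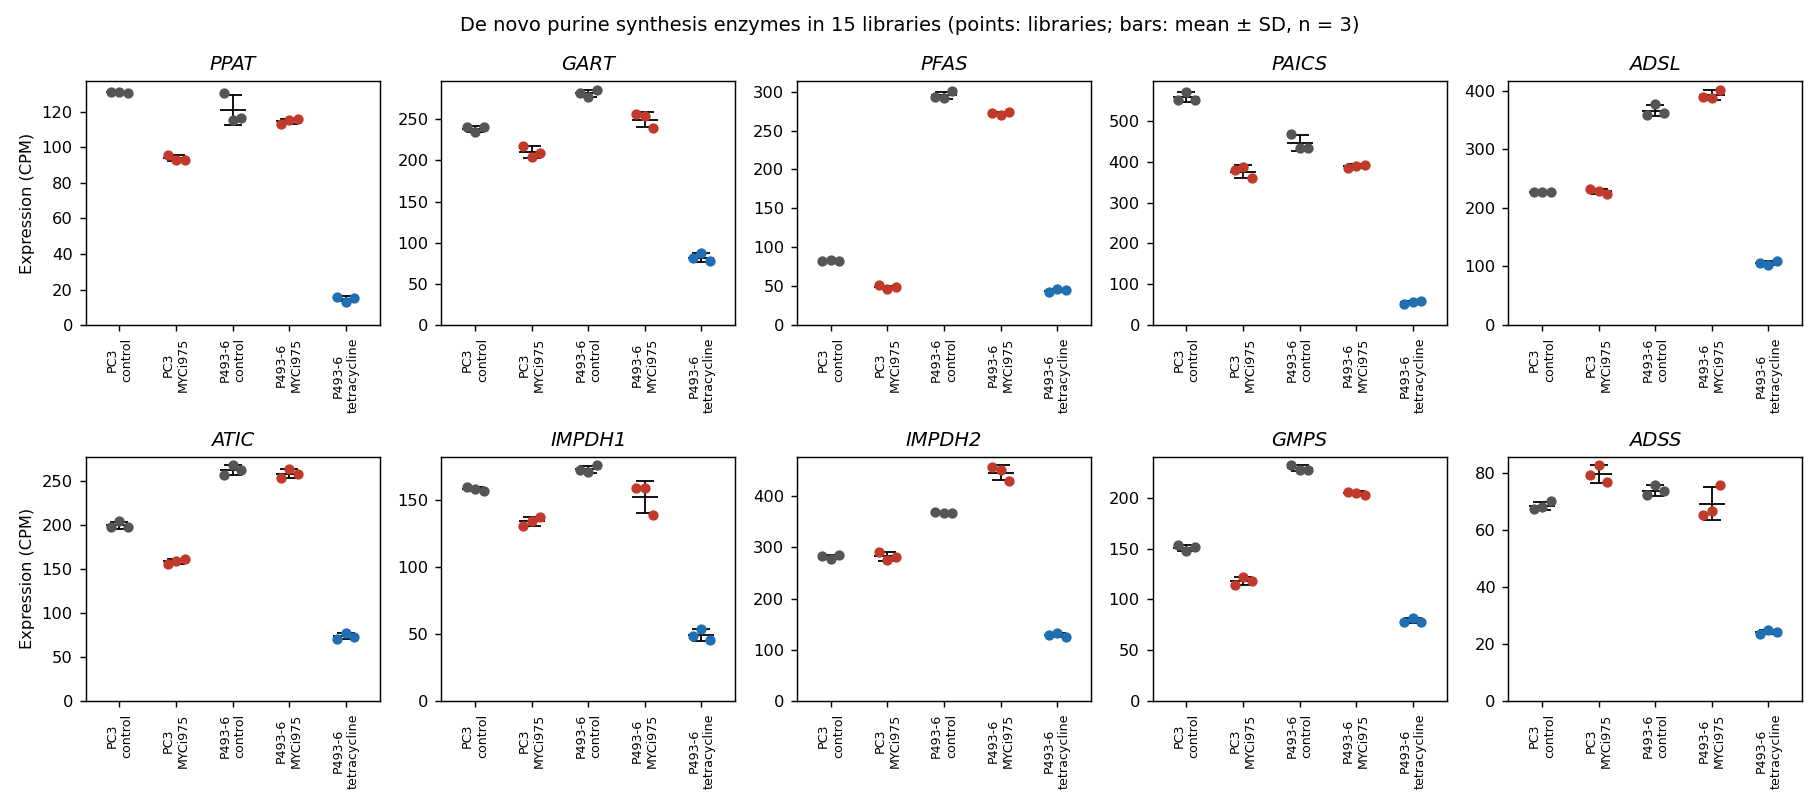
Expression of each enzyme in CPM (vertical axis, from 0, scaled per enzyme) in the 15 libraries; points are libraries, and bars give mean ± SD of the 3 libraries of each of the 5 groups along the horizontal axis. In P493-6 the tetracycline libraries of each enzyme lie well below both other groups, while MYCi975 libraries lie close to their controls, visibly lower in PC3 for PPAT, PFAS and PAICS and higher in P493-6 for IMPDH2.

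With 8 µM MYCi975 in PC3, 7 of the 10 enzymes fell, ADSS rose, and ADSL and IMPDH2 did not pass the test. The 3 with the largest falls were PFAS, PAICS and PPAT, at 58.7%, 67.4% and 71.6% of control, and the summed level of the 10 went from 2097 ± 6.57 to 1730 ± 19.9 CPM. Of all 13751 genes, 59.2% passed the test, 30.1% downward and 29.0% upward, against 7 and 1 of the 10 enzymes. The median log2 fold change of the enzymes was -0.28 against -0.0020 over all genes, and 3 of them (PPAT, PFAS and PAICS) were among the lowest 10% of genes.

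PFAS was at 82.5, 84.0 and 82.4 CPM in PC3 controls and at 50.9, 46.8 and 48.4 CPM with MYCi975. PAICS was at 553, 572 and 551 CPM and then at 381, 389 and 359.8 CPM. PPAT was at 131, 131 and 131 CPM and then at 95.8, 93.1 and 92.7 CPM. In all 3 the treated libraries lay below every control, with log2 fold changes of -0.76 (SE 0.051, adjusted p = 8.86e-25), -0.57 (SE 0.030, adjusted p = 2.08e-31) and -0.48 (SE 0.042, adjusted p = 2.33e-18). GMPS went from 148 to 153 CPM to 114 to 122 CPM (log2 -0.35, adjusted p = 3.88e-13), and ATIC from 197 to 204 CPM to 156 to 162 CPM (log2 -0.33, adjusted p = 2.27e-13). IMPDH1 went from 157 to 159.7 CPM to 131 to 138 CPM (log2 -0.24, adjusted p = 8.88e-08), and GART, the smallest fall, from 234 to 241 CPM to 204 to 218 CPM (log2 -0.18, adjusted p = 4.23e-06). All 7 had groups that did not overlap, as did 31.7% of all genes in this direction.

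ADSS was the exception: it stood at 67.1, 67.9 and 70.0 CPM in PC3 controls and at 79.3, 82.6 and 76.6 CPM with MYCi975, every treated library above every control, as in 30.2% of all genes. Its log2 fold change was 0.22 (SE 0.048, adjusted p = 6.91e-05). ADSL, which acts both before IMP and after ADSS, was at 227 CPM in each control and at 232, 228 and 224 CPM with MYCi975, so the groups overlapped (log2 0.01, 95% interval -0.06 to 0.07, adjusted p = 0.891). IMPDH2 was at 283, 277 and 284 CPM and then at 291, 275 and 281 CPM, also overlapping (log2 0.00, 95% interval -0.06 to 0.07, adjusted p = 0.910). IMPDH2 thus parted from its isoform IMPDH1: its share of the summed IMPDH1 and IMPDH2 CPM was 64.0% ± 0.45 in controls and 67.8% ± 1.05 with MYCi975, a description without a test of its own.

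With 6 µM MYCi975 in P493-6 the changes were smaller. GART, PFAS, PAICS, IMPDH1 and GMPS fell, PAICS the most at -0.19 on the log2 scale, IMPDH2 rose by 0.28, and PPAT, ADSL, ATIC and ADSS did not pass the test. The range was 87.3% (PAICS) to 121% (IMPDH2) of control, and the summed level went from 2616 ± 17.6 to 2549 ± 18.0 CPM. Of all 12998 genes, 28.6% passed the test, 18.0% downward and 10.6% upward, against 5 and 1 of the 10 enzymes. Their median log2 fold change was -0.11 against -0.04 over all genes, and none was among the lowest 10% of genes. With TMM scaling, which sets the typical gene of each library equal, 1685 genes passed downward and 1822 upward in place of 2338 and 1375. With TMM scaling PFAS did not pass (adjusted p = 0.185) and ADSL rose (log2 0.15, adjusted p = 0.00479), so these calls depend on how libraries are scaled. Without the trend and robust settings of limma, none of the 5 falls passed (adjusted p from 0.0600 to 0.139).

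IMPDH2 was at 370.0, 367 and 367 CPM in P493-6 controls and at 457, 452 and 431 CPM with MYCi975, with no overlap, as in 15.2% of all genes upward (log2 0.28, SE 0.040, adjusted p = 3.22e-07). IMPDH1 was at 173, 171 and 176 CPM and then at 159, 159 and 139 CPM, also without overlap (log2 -0.19, SE 0.049, adjusted p = 0.00276). The isoforms of IMP dehydrogenase therefore moved in opposite directions here. The IMPDH2 share of their summed CPM was 68.0% ± 0.34 in controls, 74.6% ± 0.91 with MYCi975 and 72.4% ± 1.16 with tetracycline, so it was also higher in the group in which both isoforms fell.

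PAICS was at 468, 435 and 434 CPM in controls and at 384, 390.0 and 393 CPM with MYCi975 (log2 -0.19, SE 0.040, adjusted p = 0.00018). GART was at 281, 277 and 286 CPM and then at 256, 254 and 239 CPM (log2 -0.17, SE 0.042, adjusted p = 0.00135). GMPS was at 233, 228 and 227 CPM and then at 206, 205 and 202 CPM (log2 -0.16, SE 0.042, adjusted p = 0.00238). In these 3 enzymes the groups did not overlap, as in 24.8% of all genes downward. PFAS, at 294, 292 and 301 CPM and then 272, 269.8 and 274 CPM, did not overlap either (log2 -0.12, SE 0.041, adjusted p = 0.0224), but its call was lost without the third control library (adjusted p = 0.0859), without the first treated library (0.0610) and without the second (0.0826).

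PPAT did not pass the test, and its groups overlapped. It was at 131, 115 and 117 CPM in controls, 1 library standing above the other two, and at 113, 115 and 116 CPM with MYCi975 (log2 -0.07, 95% interval -0.17 to 0.03, adjusted p = 0.302). ADSL was at 358, 377 and 362 CPM and then at 389, 387 and 401 CPM, without overlap and just outside the threshold (log2 0.10, 95% interval 0.02 to 0.18, adjusted p = 0.0511). ATIC was at 257, 268 and 263 CPM and then at 253, 264 and 258 CPM, with overlap. Its log2 fold change was -0.02 (adjusted p = 0.717), or 0.02 with TMM scaling (adjusted p = 0.743). ADSS was at 72.0, 75.6 and 73.5 CPM and then at 65.2, 66.4 and 75.8 CPM, the third treated library above all controls (log2 -0.09, adjusted p = 0.245; without that library -0.16, adjusted p = 0.0453). In the authors' deposited table, whose marks use an adjusted p below 0.01, PAICS was marked lower and ADSL and IMPDH2 higher in this comparison, and no other enzyme was marked. For PC3 and tetracycline the marks in the authors' deposited table match the calls given above for all 10 enzymes.

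**Figure D2:**
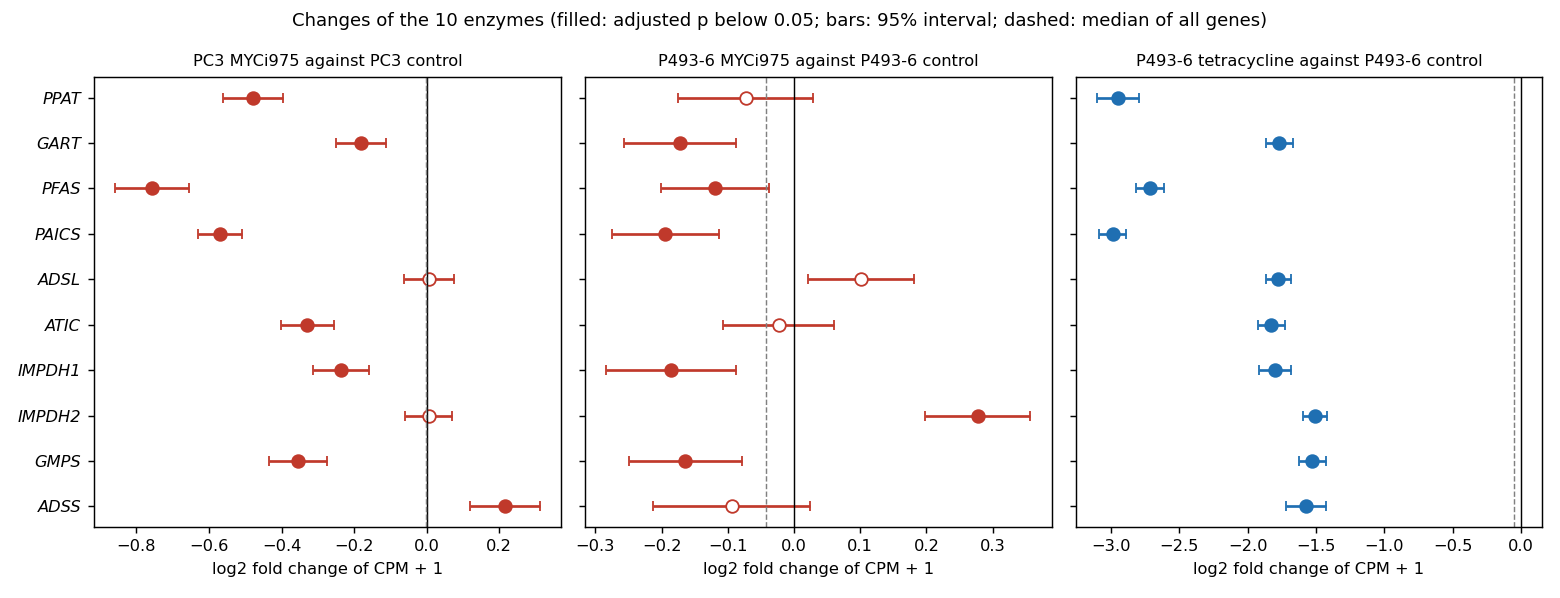
Fitted log2 fold change of CPM + 1 (horizontal axis, a separate scale in each panel) of the 10 enzymes in 3 comparisons; points are estimates, filled where the adjusted p is below 0.05, bars are 95% intervals, and the dashed line is the median of all genes. Falls with tetracycline run from -2.99 to -1.51, those with MYCi975 reach -0.76 in PC3 and -0.19 in P493-6, and the filled points above 0 are ADSS in PC3 and IMPDH2 in P493-6.

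Both P493-6 comparisons use the same 3 control libraries and so are not independent. In the direct contrast of tetracycline with MYCi975, fitted on the 9 P493-6 libraries, all 10 enzymes were lower with tetracycline, while 76.2% of 12860 genes passed the test, 42.3% downward and 33.9% upward. The log2 differences ran from -1.36 for GMPS (SE 0.045, adjusted p = 3.79e-31) to -2.87 for PPAT (SE 0.067, adjusted p = 7.26e-38), with a median of -1.79 against -0.08 over all genes. PPAT at 14.8 ± 1.52 CPM with tetracycline was at 12.9% of its level with MYCi975, and PAICS and PFAS were at 14.2% and 16.3%. IMPDH2, higher with MYCi975 and lower with tetracycline than in controls, was at 28.8% (log2 -1.79, SE 0.041, adjusted p = 6.65e-38). The agents, their doses and their vehicles differ, so the contrast compares these treatments as given.

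The MYCi975 change differed between the lines for 7 of the 10 enzymes, tested as the interaction of line and treatment over 12 libraries, while 36.3% of 11240 genes passed that test, 18.2% with the lower change in PC3 and 18.1% with the higher. PFAS, PPAT, PAICS, ATIC, IMPDH2 and GMPS had the lower change in PC3 and ADSS the higher. The difference of log2 fold changes, PC3 minus P493-6, was largest for PFAS (-0.64, 95% interval -0.76 to -0.52, adjusted p = 1.68e-11), followed by PPAT (-0.41, adjusted p = 3.43e-06) and PAICS (-0.37, adjusted p = 1.26e-07). For IMPDH2 the difference of -0.27 (adjusted p = 2.42e-05) came from a rise in P493-6 beside no called change in PC3, and for ADSS the difference of 0.31 (adjusted p = 0.00155) from a rise in PC3 beside no called change in P493-6. GART (-0.01, 95% interval -0.12 to 0.10), ADSL (-0.09, -0.19 to 0.00) and IMPDH1 (-0.05, -0.18 to 0.08) did not pass. The lines received different doses, 8 and 6 µM, so line and dose cannot be told apart. CPM are shares of each library, with no further scaling between the lines. On that basis control PFAS stood at 83.0 ± 0.87 CPM in PC3 and 295 ± 4.68 CPM in P493-6, and PAICS at 559 ± 11.8 and 446 ± 19.7 CPM.

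**Figure D3:**
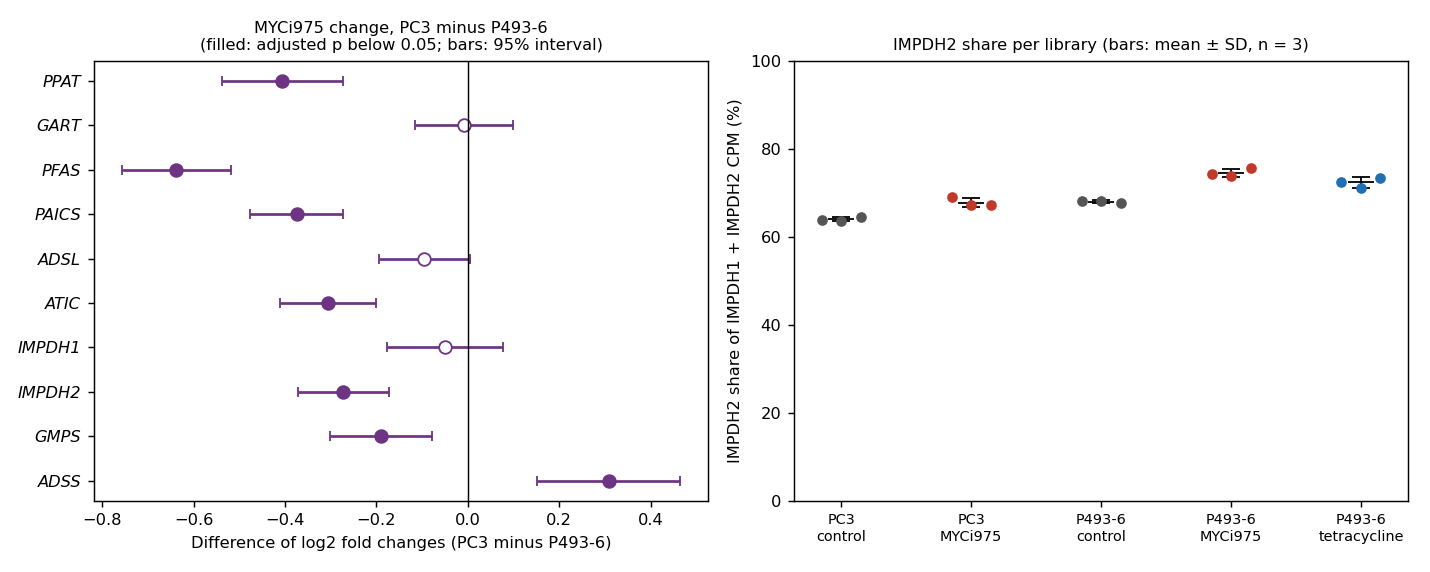
Left, difference of the MYCi975 log2 fold changes (PC3 minus P493-6) for each enzyme with 95% intervals, filled where the adjusted p is below 0.05; right, IMPDH2 as a percent of summed IMPDH1 and IMPDH2 CPM, points for libraries and bars for mean ± SD (n = 3). Of the 10 intervals, 6 with filled points lie below 0 and that of ADSS above it, and the IMPDH2 share is above its controls in all 3 treated groups.

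Genes around the route were read from 5 further lists of 54 genes in all, and their counts are given beside the share of all genes that passed the test, with no test of a list. PRPP supply holds the pentose phosphate enzymes and PRPP synthetases that make the starting sugar phosphate. With tetracycline 8 of its 9 genes fell and PGLS rose (41.9% and 36.2% of all genes), with a median log2 fold change of -0.56 against -0.05 over all genes, and the largest falls were in RPIA, which makes ribose 5-phosphate (-2.52), and the PRPP synthetases PRPS2 (-1.90) and PRPS1 (-1.45). Of the same 9 genes 5 fell and 2 rose in PC3 treated with MYCi975 (30.1% and 29.0% of all genes), among them PRPS1 (-0.52), PRPS2 (-0.44) and PGLS (0.54), and 3 fell and 1 rose in P493-6 treated with it (18.0% and 10.6% of all genes), among them PRPS2 (-0.21) and PGLS (0.34). PGLS, a lactonase of the oxidative pentose phosphate branch, rose in all 3 comparisons.

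The next list holds enzymes of the folate metabolism that carries the formyl groups used by GART and ATIC. Not all of its members supply these groups, ALDH1L2 being one that does not. All 9 measured genes fell with tetracycline, as did 41.9% of all genes (list median -1.21), led by the mitochondrial MTHFD1L (-3.35), the cytosolic MTHFD1 (-1.49) and MTHFD2 (-1.33). In PC3 with MYCi975, 3 of 9 rose and 3 fell, close to the 29.0% and 30.1% of all genes. The mitochondrial MTHFD2 went from 163 to 348 CPM (log2 1.09, adjusted p = 2.61e-48), while the cytosolic SHMT1 fell by 0.66. In P493-6 with MYCi975, 2 rose and 3 fell (10.6% and 18.0% of all genes), among them ALDH1L2 (0.94) and MTHFD2L (-0.42). In PC3 MTHFD2 thus moved up while PFAS and PAICS moved down.

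Among 12 measured salvage and interconversion genes, 7 fell and 4 rose with tetracycline (41.9% and 36.2% of all genes), with falls in MTAP (-1.99) and PNP (-1.93), which release bases for reuse, and a rise in the AMP deaminase AMPD3 (2.36). With MYCi975 4 of 13 fell and 2 rose in PC3 (30.1% and 29.0% of all genes), including HPRT1, which salvages hypoxanthine and guanine (-0.47), MTAP (-0.43) and ADSSL1, a muscle-type relative of ADSS (0.70, from 0.93 to 2.12 CPM). In P493-6 with MYCi975, 2 of 12 fell and 2 rose (18.0% and 10.6% of all genes), among them PNP (-0.23), ADA (0.40) and GMPR2 (0.33). Of the nucleotide kinases, 9 of 10 fell with tetracycline, beside 41.9% of all genes, among them NME1 (-3.43) and AK4 (-1.73). With MYCi975 3 of 11 fell and 1 rose in PC3 (AK4 -0.31, NME1 -0.30, NME3 0.50), and 2 of 9 fell and 1 rose in P493-6 (among them NME1 -0.12 and AK3 0.25). The kinase falls with MYCi975 were close to the shares of all genes, 30.1% in PC3 and 18.0% in P493-6. Beside the kinase rises, 29.0% of all genes rose in PC3 and 10.6% in P493-6. NME1 is uncertain, since reads may be shared with its near-identical neighbour NME2.

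Breakdown genes had the only list median above 0 with tetracycline (0.50, beside -1.79 for the synthesis enzymes), and 5 of 7 rose while 2 fell (36.2% and 41.9% of all genes). The nucleotidases NT5E and NT5C3A, of which NT5C3A is a pyrimidine nucleotidase, rose by 1.66 and 1.64, and SAMHD1, which hydrolyses deoxynucleotides, by 1.44. With MYCi975 3 of 8 fell and 1 rose in PC3 (30.1% and 29.0% of all genes), with NT5C at 0.48, NT5C2 at -0.27 and NT5E at -0.22, and 3 of 7 fell in P493-6 (18.0% of all genes), SAMHD1 (-0.32), NT5E (-0.24) and NT5C2 (-0.16). List medians with MYCi975 lay between -0.08 and -0.01 in PC3 and between -0.16 and -0.02 in P493-6 for these 5 lists, beside -0.28 and -0.11 for the synthesis enzymes.

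In the direct contrast of tetracycline with MYCi975 the test found 8 of 9 PRPP supply genes, 9 of 9 folate genes, 7 of 12 salvage genes, 8 of 9 kinases and 2 of 7 breakdown genes lower, beside 42.3% of all genes. In the same contrast 3 salvage genes and 5 breakdown genes were higher, beside 33.9% of all genes. Between the lines, 4 of 9 folate genes had the lower and 4 the higher MYCi975 change in PC3, beside 18.2% and 18.1% of all genes. MTHFD2 had the larger change in PC3 by 1.04 (adjusted p = 9.49e-19) and ALDH1L2 the lower by -1.02 (adjusted p = 0.000305). The ALDH1L2 difference came from a rise in P493-6, from 10.5 to 21.0 CPM. In PC3 ALDH1L2 was barely detected, at 0.96 CPM in controls and 0.86 CPM with MYCi975, with no called change. The folate list's median difference was 0.15 beside -0.23 for the synthesis enzymes and 0.01 over all genes.

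**Figure D4:**
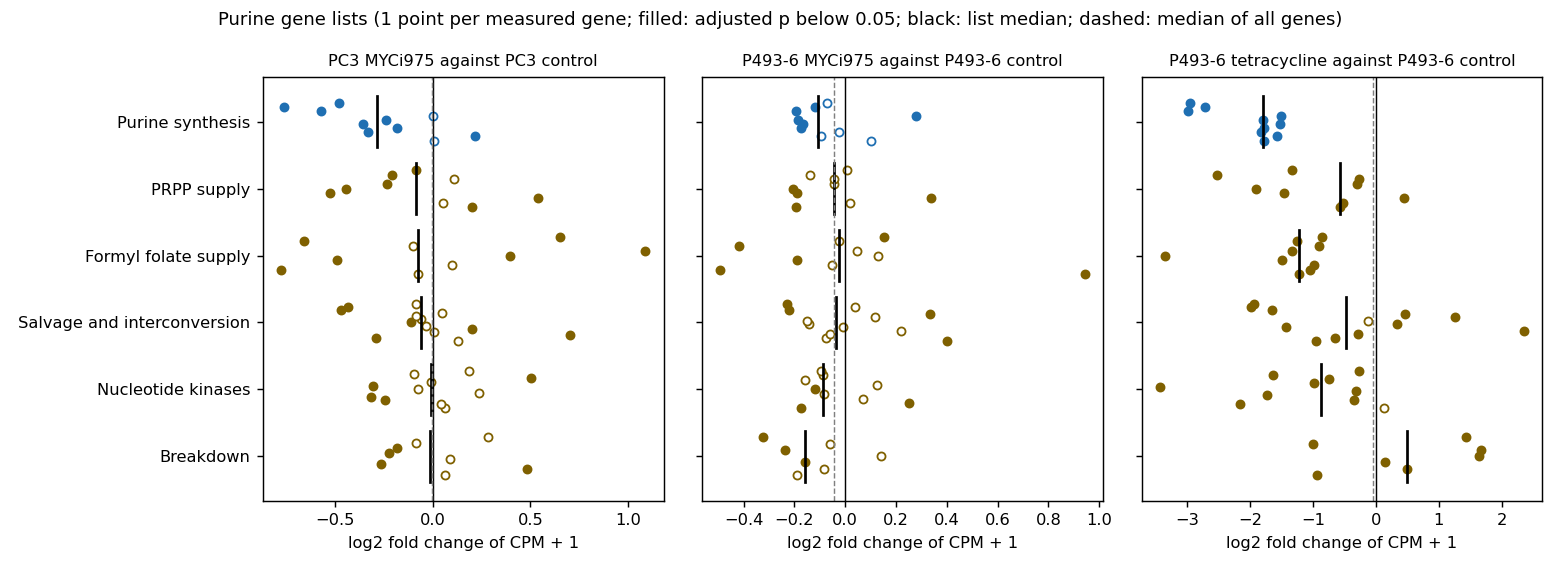
Log2 fold change of CPM + 1 (horizontal axis, a separate scale in each panel) of the measured genes of the 10-enzyme set and of 5 related lists (rows) in 3 comparisons; 1 point per gene, filled where the adjusted p is below 0.05, with list medians in black and the median of all genes dashed. The synthesis enzymes lie furthest left as a group with tetracycline (median -1.79) and the breakdown genes furthest right (median 0.50).

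Genes whose pattern was most like that of the enzymes were ranked over the 15 libraries. The measure was the root mean square difference from the median of the 10 enzymes, after subtracting the control mean of each line from log2(CPM + 1), over 9664 other genes. The closest 5 were NAA25 (0.048), DDX18 (0.052), WDR36 (0.056), HEATR1 (0.066) and DNAJA3 (0.067). On the same measure the enzymes themselves ranged from 0.056 for ATIC and 0.067 for GART to 0.53 for PPAT and 0.56 for PAICS. NAA25, for example, had log2 fold changes with MYCi975 of -0.28 (PC3) and -0.14 (P493-6), and of -1.70 with tetracycline.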

How the data were processed

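Expression was measured by RNA-seq in 15 libraries of PC3 and P493-6 cells, grouped by line and treatment as labelled. Per the submitters' processing notes, STAR, HTSeq, edgeR and hg38 were used; the sources used here give no versions, annotation or strand setting. The authors deposited CPM per gene with no further scaling between libraries; 100% of values were whole multiples of 1 read within 0.001 reads, which gave the depths. Per the file headers, the deposited tables also hold the authors' log2 fold changes, a likelihood ratio score and p-values.

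Here limma 3.58.1 (R 4.3.3, trend and robust) was fitted to log2(CPM + 1) over every gene of each table, with Benjamini-Hochberg adjustment and calls below 0.05, two-sided; fold changes are therefore on the log2(CPM + 1) scale, which understates those of low genes. The direct contrast used 9 libraries and the line interaction 12. Alternatives were pseudocounts of 0.1 and 5, TMM, a mean CPM of at least 5, genes in all 3 tables, limma without trend and robust, edgeR 4.0.16 on recovered reads, 1 joint P493-6 fit, a replicate block and leaving out each library. The scripts were tested on simulated data. The members and lists were chosen with earlier results of these data known. Genes named are all 10 enzymes, MYC, up to 3 called genes with the largest change per list and comparison, and the 5 closest in pattern; some of the list genes are not reported here.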

Additional observations from a re-analysis of the deposited data

Results flagged for a closer look

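For 7 enzymes the change with MYCi975 differed between PC3 and P493-6 by the interaction test itself, at an adjusted p below 0.05 (limma, 12 libraries). The difference of log2 fold changes, PC3 minus P493-6, was -0.64 for PFAS, -0.41 for PPAT, -0.37 for PAICS, -0.31 for ATIC, -0.27 for IMPDH2, -0.19 for GMPS and 0.31 for ADSS. Each of the 7 remained past the threshold with any single library left out. The doses were 8 µM in PC3 and 6 µM in P493-6, so line and dose cannot be told apart.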

How the results depend on the processing

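Leaving out each library in turn gave 7 enzymes lower and 1 higher in PC3, 10 lower and 0 higher with tetracycline against controls and against MYCi975, 7 with a different change between lines, and 4 to 6 lower and 1 higher with MYCi975 in P493-6. Genes called over the tables then ranged from 7458 to 7697, 10273 to 10436, 9404 to 9806, 3617 to 3994 and 2976 to 3281 in the same order. In P493-6 with MYCi975, 2 enzymes in place of 1 were called higher under TMM factors, a mean CPM of at least 5, genes in all 3 tables and edgeR on recovered reads, ADSL being added (adjusted p 0.00479, 0.0432, 0.0489 and 0.00503). limma without trend and robust called 0 enzymes lower there in place of 5 (adjusted p from 0.0600 to 0.139) and 2055 genes in place of 3713; the cause was not tested. Small changes turned sign, none of them called: with single libraries left out, IMPDH2 in PC3 ran from -0.017 to 0.023, ADSL in PC3 from -0.0064 to 0.020 and the line difference of GART from -0.040 to 0.014, and ATIC in P493-6 was 0.022 with TMM and 0.021 with edgeR. Libraries with the same replicate number did not deviate together (r from -0.07 to 0.01 between treated and control libraries, each centred on its group mean). Such correlations cannot show whether libraries with equal numbers were handled as pairs. With the replicate block PFAS in P493-6 with MYCi975 kept its value of -0.12 but not its call (adjusted p = 0.0692), and no other enzyme changed its call. Of all 810 values for single enzymes under an alternative, 785 kept their direction and side of the threshold. The lowest depth behind an enzyme was that of PPAT with tetracycline, at 107 reads.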
